A study of Mus musculus with 32 samples.

Results

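Mouse bone marrow cells enriched for hematopoietic stem cells were compared with whole, unsorted marrow across all genes on 2 Affymetrix chip types. The comparison was chosen by sample title: the 3 samples titled by a number alone are the stem-enriched cells and the 3 titled Total are total marrow. These 6 RNA samples, with 12 arrays, belong to a series of 16 RNA samples and 32 arrays. The stem-enriched cells were isolated with a flow cytometer, with a stated purity over 90%, and the deposited instrument records describe them as lacking lineage markers and carrying Sca-1 and cKit. Their RNA came from 76000 to 290000 cells at 10 ng/µl. Total marrow was not purified, and its RNA came from 1000000 to 5000000 cells at 130 to 390 ng/µl. Both populations are marrow cells with no treatment or mutation named in the labels, and no strain, age or sex is named in them. Whether the 3 samples of each population are from separate animals is not stated in the labels, so p-values measure the spread between these samples, which may be technical. The other populations, used only for the shared estimate of spread and for description, are lineage-depleted marrow (Lin-), Lin-Sca-1-cKit+ cells and Lin-Sca-1-cKit- cells, with 3 samples each, and 1 Lin-Sca-1+cKit- sample that entered no fit.

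Hematopoietic stem cells sit at the top of the blood hierarchy: they divide rarely, renew themselves and give rise through committed progenitors to red cells, platelets, granulocytes, monocytes and lymphocytes. The gate that combines absence of lineage markers with Sca-1 and the stem cell factor receptor cKit holds stem cells together with multipotent progenitors, so it enriches for stem cells and does not isolate them. Unsorted marrow is mostly maturing neutrophils, red cell precursors and B cells, whose granule, hemoglobin and receptor genes dominate its RNA. In a bulk sample, fewer cells of a type and less RNA per cell cannot be told apart.

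Falls were larger than rises. Genes of mature blood cells were lower in stem-enriched cells by up to 122-fold on the probe set taken for each gene, while stem cell associated genes were higher by up to 38.6-fold, and the ribosome genes that passed the test were higher by at most 3.78-fold. Of 13599 genes, each represented by 1 probe set, 2314 passed the test, which is 17.0%. Of these, 1194 genes (8.78%) were higher in stem-enriched cells and 1120 (8.24%) were lower. These shares are the reference for the counts of the gene lists below. At a difference of at least 4-fold, 141 genes were higher and 385 lower, and at 16-fold or more, 4 were higher and 48 lower. Over all 28949 probe sets tested, 4108 (14.2%) passed, 2069 higher (7.15%) and 2039 lower (7.04%). The test was limma's moderated test on log2 signal, two-sided, with Benjamini-Hochberg adjustment over the probe sets of both chip types and a threshold of 0.05. The median log2 difference over all genes was 0.15, and the samples of the populations did not overlap for 42.8% of genes.

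**Figure D1:**
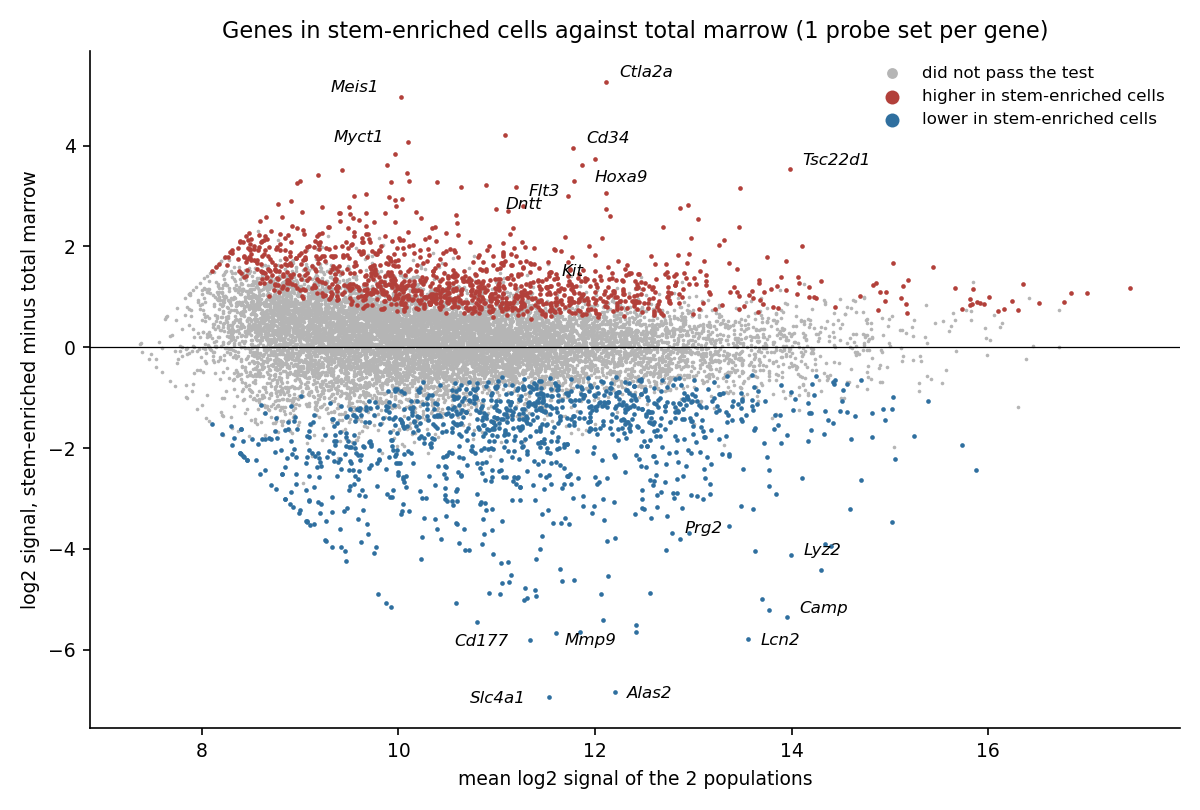
Each point is 1 gene. The horizontal axis is the mean log2 signal of the 2 populations and the vertical axis the log2 difference, stem-enriched minus total marrow; red and blue points passed the test (1194 higher, 1120 lower). The blue points reach further from 0 than the red ones, with Slc4a1 and Alas2 at the bottom and Ctla2a and Meis1 at the top; the straight left edges are genes at the signal floor of 1 population.

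Several technical measures moved with the population. On each chip type, all arrays of stem-enriched cells came from 1 chip lot and 1 scan day, and all arrays of total marrow from another lot and another day, so within these 6 samples neither the lot nor the day can be told apart from the population. A fit with the chip lot as a block on chip type A borrows the lot difference from the other populations; it is called the lot-adjusted fit here, and it passed 1780 probe sets, 704 higher and 1076 lower. Values on chip type B keep their differences in it, and only their adjusted p moves. With Lin-Sca-1-cKit+ replicate 2 also left out (a choice made after seeing the data), it passed 2922. Leaving out that library alone raised the count of 4108 to 6273. On chip type A its median signal of 879.9 was the highest of all arrays, where the lowest was 453.0. The control probe sets for the 3' and 5' ends of Gapdh differed too: on chip type A the log2 ratio of 3' to 5' signal was 4.17, 3.84 and 3.98 in stem-enriched cells, against 3.23, 2.74 and 3.38 in total marrow. The groups do not overlap (difference 0.88, exact permutation test, two-sided p = 0.1, the smallest that 3 against 3 allows). The same ratio of beta actin averaged 2.75 ± 0.22 in stem-enriched cells and 1.5 ± 0.51 in total marrow (SD, n = 3 each, exact permutation p = 0.1), a larger difference of 1.26, also without overlap. A fit with the Gapdh ratio as a covariate passed 5830 probe sets; the part of the actin ratio in the results was not tested. Log2 signals correlated at 0.845 to 0.87 between stem-enriched samples, 0.918 to 0.934 between total marrow samples, and 0.74 to 0.806 across the populations. Leaving out single samples lowered the count of 4108 by more than 1.5 times for total marrow replicate 2 (2391), total marrow replicate 3 (2554), stem-enriched replicate 2 (2651) and stem-enriched replicate 3 (2662).

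The sort was checked first on the genes of its own markers. Kit, which encodes cKit, had signals of 4476, 5050 and 4971 in stem-enriched cells, against 1575, 2330 and 1623 in total marrow. The groups do not overlap, and Kit was 2.66-fold higher in stem-enriched cells (log2 difference 1.41 ± 0.23 SE, limma adjusted p = 0.000623); in the lot-adjusted fit the difference was 1.16 with an adjusted p of 0.0746. The transcript of Sca-1 was not analysed here. Itgam, the Mac-1 integrin chain of myeloid cells that lineage cocktails commonly include, had signals of 239, 190 and 30.6 in stem-enriched cells and 1084, 1659 and 1141 in total marrow, a fall of 6.53-fold (adjusted p = 0.000664). Cd3e, a chain of the T cell receptor complex, was low in both populations, at 357, 175 and 164 in stem-enriched cells and 381, 87.4 and 473 in total marrow; these ranges overlap and the difference did not pass (limma adjusted p = 0.61). Ptprc, the leukocyte antigen CD45, was 2.45-fold lower in stem-enriched cells (log2 difference -1.29, adjusted p = 0.00396), at 14204, 16609 and 15680 against 29833, 44126 and 41125 in total marrow; in the lot-adjusted fit it was at -0.97 (adjusted p = 0.225). The 6 markers chosen for stem and progenitor cells (Kit, Cd34, Flt3, Procr, Meis1 and Hoxa9) were all higher in stem-enriched cells. Their signals summed to between 37005 and 54501 there, against 4213 to 5721 in total marrow. Earlier results of these data were known when genes were chosen, so these 6 are no independent check of the sort.

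Most genes associated with stem cells were higher. Of 50 listed, 44 were tested, and 27 were higher in stem-enriched cells (61.4%, against 8.78% of all genes), 1 was lower and 16 did not pass; their median log2 difference was 1.4, against 0.15 over all genes. The list was written with earlier results of these data known, so its count describes these samples and is no independent support. In the lot-adjusted fit 16 of the 44 were higher, and 21 with Lin-Sca-1-cKit+ replicate 2 also left out. The gene with the largest rise was Ctla2a, which encodes a small cysteine protease inhibitor: its signals were 17132, 38546 and 31697 in stem-enriched cells and 976, 585 and 638 in total marrow. Every stem-enriched sample lay above every total marrow sample, which the choice of the largest rises required. Ctla2a was 38.6-fold higher (log2 difference 5.27 ± 0.35 SE, limma adjusted p = 1.24e-07). Its paralog Ctla2b was 18.4-fold higher, with 4913, 12046 and 13437 in stem-enriched cells against 955, 275 and 489 in total marrow; the 2 genes are near copies, and probe sets could share their transcripts.

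Meis1, the homeodomain partner of Hox proteins that maintains stem cells, had signals of 3652, 6448 and 8531 in stem-enriched cells, against 49.9, 174 and 231 in total marrow. It was 31.4-fold higher on this scale (adjusted p = 9.14e-05), with the lowest total marrow sample raised to the floor. Its 2 other probe sets, on chip type B, gave smaller log2 differences of 1.49 (adjusted p = 0.00302) and 0.67 (adjusted p = 0.282). Hoxa9, the Hox gene that acts with Meis1, had 12331, 13746 and 12935 in stem-enriched cells and 1199, 1167 and 865 in total marrow. It was 12.2-fold higher (adjusted p = 0.000231), while a second probe set of the gene gave 1.18 on the log2 scale and did not pass (adjusted p = 0.208). Of 14 tested genes of the HoxA and HoxB clusters and their TALE partners, 3 were higher (21.4%, against 8.78% of all genes). These were Meis1, Hoxa9 and Hoxa5. None was lower, and the median log2 difference was 0.08, close to that of all genes. Hoxa5 was 4.61-fold higher (adjusted p = 0.00883) but did not pass in the lot-adjusted fit (1.38, adjusted p = 0.346).

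Myct1, a target of Myc that marks stem cells and endothelium, was 16.8-fold higher, with 3283, 4473 and 6167 in stem-enriched cells against 243, 243 and 326 in total marrow; its 2 other probe sets gave 2.85 and 0.48 on the log2 scale. Cd34, the sialomucin used to mark progenitors, had 9929, 16397 and 16452 in stem-enriched cells and 710, 1012 and 994 in total marrow, a 15.5-fold difference (adjusted p = 2.64e-07). Cd34 and Myct1 separate the populations without overlap, which the choice of the largest rises required. Flt3, the receptor tyrosine kinase of multipotent and lymphoid-primed progenitors, was 9.03-fold higher (adjusted p = 2.6e-05), at 5721, 6427 and 9620 against 1075, 1010 and 443 in total marrow. Erg, an ETS factor that stem cells require, was 3.74-fold higher (adjusted p = 0.00958). The other large rises included the endothelial genes Adgrl4, an adhesion receptor (13.4-fold), and Egfl7, a secreted vessel factor (11.0-fold, with 3 other probe sets at log2 differences of 0.79 to 3.82). Bex1, a small adaptor protein (14.3-fold), and Tsc22d1, a leucine zipper regulator (11.6-fold), belong to the same top 15, as do the tetraspanin Tspan4 (9.85-fold), Armcx6 (at least 12.3-fold) and the TWEAK receptor gene Tnfrsf12a (10.7-fold). Tnfrsf12a did not pass in the lot-adjusted fit, where its log2 difference of 3.41 became 1.71 (adjusted p = 0.346), and 0.89 with Lin-Sca-1-cKit+ replicate 2 also left out. Tsc22d1 was among the brightest of them, with 30100, 69537 and 79345 in stem-enriched cells and 5405, 4318 and 4541 in total marrow, although 1 of its 4 other probe sets gave a log2 difference of 0.73 and did not pass. Pdgfrb, the platelet-derived growth factor receptor beta of mesenchymal cells, had 1302, 3173 and 998 in stem-enriched cells and was below the floor in all 3 total marrow samples, so that it was at least 9.88-fold higher (adjusted p = 0.0003).

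Not every gene known from stem cells was higher. After their values were seen, 4 more members were looked up by name. Procr, the endothelial protein C receptor used to purify stem cells, had 895, 2076 and 1992 in stem-enriched cells and 18.9, 28.9 and 57.2 in total marrow, where it was below the floor, so that it was at least 9.53-fold higher (adjusted p = 0.000145). Hlf, a PAR bZIP factor of stem cells, was 6.68-fold higher (adjusted p = 6.59e-06). Slamf1, the CD150 receptor of long-term stem cells, had overlapping signals of 970, 908 and 962 in stem-enriched cells and 939, 740 and 922 in total marrow (adjusted p = 0.845). Gata2, a factor shared by stem cells and mast cells, was at 5100, 5260 and 4774 against 3598, 2983 and 3526 in total marrow and missed the threshold (adjusted p = 0.0688).

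**Figure D2:**
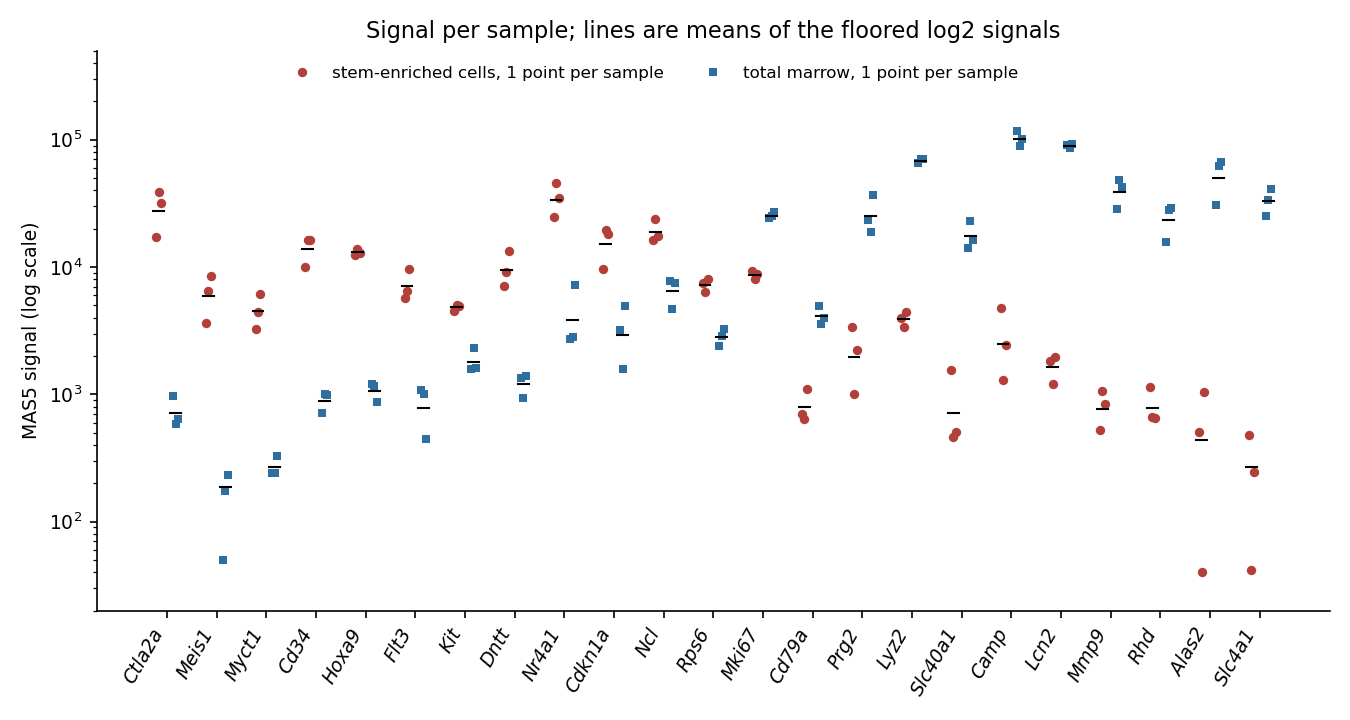
MAS5 signal on a log scale for 23 genes, with 1 point per sample: stem-enriched cells (red circles, left) and total marrow (blue squares, right), and short lines for the means of the floored log2 signals. For these genes no red point reaches into the range of the blue points of the same gene. The largest rises and falls among them were picked only from genes without overlap, which held for 42.8% of all genes tested. Ctla2a spans 17132 to 38546 in stem-enriched cells and 585 to 976 in total marrow. Slc4a1 spans 41.7 to 475 in stem-enriched cells and 25079 to 41126 in total marrow.

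Genes of late neutrophil maturation were the most widely lower of the lists. Of 32 tested genes of secondary and tertiary granules and late neutrophils, 31 were lower in stem-enriched cells (96.9%, against 8.24% of all genes) and none was higher; the median log2 difference was -3.62. The lot-adjusted count was 29 of the 32. Lcn2, the siderophore-binding protein of secondary granules, had 1812, 1216 and 1958 in stem-enriched cells and 90568, 85654 and 92882 in total marrow, a 55.1-fold difference (adjusted p = 2.64e-07). Ltf, the iron-binding granule protein lactoferrin, was 37.2-fold lower, and Camp, the precursor of the cathelicidin peptide, was 41.0-fold lower. Camp read 4769, 1301 and 2448 in stem-enriched cells, against 116672, 88771 and 101378 in total marrow. The groups are far apart for all of these genes.

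The genes of gelatinase granules and the neutrophil surface followed the same direction. Mmp9, gelatinase B, had 520, 1053 and 835 in stem-enriched cells and 28517, 47986 and 42540 in total marrow (50.3-fold lower, adjusted p = 1.16e-05). Its other probe set read 39.6, 69.7 and 84.9 in stem-enriched cells, below the floor, and 18931, 36115 and 26776 in total marrow, at least 162-fold lower (adjusted p = 6.83e-08). Cd177, a surface glycoprotein of neutrophils, was 55.7-fold lower (adjusted p = 5.98e-07), and Pglyrp1, an antibacterial peptidoglycan recognition protein, 50.1-fold lower (adjusted p = 1.27e-06). Chil1, a chitinase-like protein of granules, was 33.7-fold lower. Lrg1, a leucine-rich glycoprotein of granules, was below the floor in all 3 stem-enriched samples and was at least 35.7-fold lower. Slfn4 (50.7-fold) and Slfn1 (at least 33.6-fold), members of the Schlafen family, also stood among the 15 largest falls, as did Apol11b, an apolipoprotein L gene (at least 44.1-fold). Ifitm6, an interferon-induced transmembrane protein of myeloid cells, was nearly flat within each population, at 681, 677 and 638 in stem-enriched cells and 26912, 29253 and 29014 in total marrow (42.7-fold lower).

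Primary granule genes, which belong to the promyelocyte stage, mostly did not pass the test. Of 20 tested genes of primary granules and early myeloid cells, 5 were lower, 1 was higher and 14 did not pass, with a median log2 difference of -0.34. Mpo, myeloperoxidase, named here after its values were seen, had 165269, 77272 and 58564 in stem-enriched cells and 100069, 80827 and 88796 in total marrow; the ranges overlap (log2 difference 0.02, adjusted p = 0.985). The granule proteases Prtn3 (0.09, adjusted p = 0.929), Ctsg (-0.21, adjusted p = 0.837) and Elane (-1.21, adjusted p = 0.258) did not pass either, and for these proteases and Mpo the highest stem-enriched value was that of replicate 1. The members that were lower included Hp, the hemoglobin-binding protein haptoglobin (16.5-fold), Hdc, the histamine-forming enzyme (16.1-fold), Fcnb, the lectin ficolin B (7.54-fold), and Igsf6, an immunoglobulin-like receptor (4.54-fold). Hp had 10579, 1861 and 1543 in stem-enriched cells and 47779, 49370 and 58218 in total marrow. Replicate 1 of the stem-enriched cells was the highest of the 3 for all 5 lower members; without it 10 of the 20 were lower and the median was -0.87. The lot-adjusted fit kept 2 of the 5 lower calls: Hdc was at -2.81 there against -4.01 (adjusted p = 0.306), and Igsf6 at -1.91 against -2.18 (adjusted p = 0.137).

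Replicate 1 was also the highest stem-enriched sample for many lower genes of other lists, though not of all. Among all 1120 genes lower in stem-enriched cells, replicate 1 was the highest of the 3 samples for 544, replicate 2 for 259 and replicate 3 for 283, with 34 ties; over all 13599 genes the same counts were 5038, 4147 and 4345. It was the highest for 15 of 22 lower monocyte genes and 17 of 26 lower red cell membrane genes, but for only 2 of 11 lower mature B and plasma cell genes, where replicate 3 was the highest for 9. The summed B cell markers were 8845, 6749 and 11241 in stem-enriched replicates 1, 2 and 3, highest in replicate 3. Of 5 red cell markers only 2 were tested, Alas2 and Slc4a1, and their sums were 980, 82 and 1287 in the same replicates. Alas2 sets that order (505, 40.0 and 1040), while Slc4a1 was highest in replicate 1 (475, 41.7 and 247). Summed signals of the 7 late neutrophil markers were 67483, 29119 and 55831 in the stem-enriched samples and 555738 to 697380 in total marrow, so no stem-enriched sample reached the total marrow range. The part of residual mature cells in these values was not tested.

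Monocyte and macrophage genes were lower in 22 of 32 cases (68.8%) and higher in none, with a median log2 difference of -1.78. Slc40a1, the iron exporter ferroportin of macrophages and erythroid cells, had 1562, 462 and 505 in stem-enriched cells and 14075, 22943 and 16268 in total marrow, and was 24.3-fold lower (adjusted p = 1.03e-05); a second probe set gave a log2 difference of -1.59 (adjusted p = 0.00214). Lgals3, the lectin galectin-3, was 20.9-fold lower, Lyz2, the lysozyme of granulocytes and macrophages, 17.5-fold lower, and Vcam1, an adhesion molecule of macrophages and stroma, 12.2-fold lower. Lyz2 had 3976, 3410 and 4422 in stem-enriched cells, against 65144, 70215 and 70168 in total marrow. The 2 other probe sets of Vcam1 gave log2 differences of -0.59 and -1.36 and did not pass. Of 5 monocyte markers tested, only Ctss and Ccr2 passed, and the markers summed to 20822 to 34986 in stem-enriched cells and 51305 to 67011 in total marrow.

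Eosinophil, mast cell and basophil genes were split. Of 19 tested, 9 were lower (47.4%), none was higher and the median was -1.02. The lower members were led by the chemokine gene Ccl6 (31.5-fold), by Prg2, the eosinophil major basic protein (12.9-fold), and by Alox15, a lipoxygenase of eosinophils (12.2-fold). Prg2 had 3384, 1008 and 2214 in stem-enriched cells and 23423, 18912 and 36629 in total marrow, with no overlap. The lot-adjusted count was 4 of the 19.

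On the probe set taken for each gene, Slc4a1 and Alas2 of the red cell lineage had the largest falls. Slc4a1, the anion exchanger band 3 of the red cell membrane, had 475, 41.7 and 247 in stem-enriched cells and 25079, 33869 and 41126 in total marrow. It was 122-fold lower (log2 difference -6.94 ± 0.50 SE, adjusted p = 2.59e-07), with a value below the floor raised to it. Alas2, the erythroid enzyme that starts heme synthesis, had 505, 40.0 and 1040 in stem-enriched cells and 30608, 62134 and 67375 in total marrow, and was 115-fold lower (adjusted p = 5.96e-07). Both genes were lowest in stem-enriched replicate 2. Of 34 tested genes of the red cell membrane, blood groups and erythroid factors, 26 were lower (76.5%), none was higher and the median was -2. Of 20 tested genes for globin, heme and iron handling, 14 were lower (70.0%), none was higher and the median was -1.38.

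Heme synthesis and its surroundings fell at several steps. Cpox, coproporphyrinogen oxidase, was 8.79-fold lower, with 2 other probe sets at log2 differences of -1.09 and -1.81, and Fech, ferrochelatase, which inserts iron into heme, was 8.29-fold lower, at 530, 569 and 461 in stem-enriched cells against 2206, 6856 and 5237 in total marrow. Blvrb, biliverdin reductase B, was below the floor in all 3 stem-enriched samples and was at least 19.0-fold lower. For globin itself only Hbb-b2 and Hba-a2, looked up after the fact, were tested. The other globin genes had no probe set named for them alone or did not pass the filter on low signals. Both Hbb-b2 and Hba-a2 had low signals, 268 to 878 in stem-enriched cells and 43.7 to 481 in total marrow for Hbb-b2. Neither passed (limma adjusted p = 0.0729 and 0.229). Alas2 read 30608 to 67375 in total marrow. Whether these probe sets read globin transcripts was not tested, so they do not settle whether globin differed. Rhd, the Rhesus blood group protein, was 29.7-fold lower, with 1134, 659 and 656 in stem-enriched cells and 15741, 27939 and 29070 in total marrow. Tent5c, a poly(A) polymerase of late erythroblasts and plasma cells, was 46.0-fold lower, with a second probe set at -3.39 on the log2 scale. Nxpe2, an erythroid gene of the list, was 25.3-fold lower, and a second probe set of it gave a log2 difference of -0.65.

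The counts for the red cell lists were smaller in fits without single samples and in the lot-adjusted fit. In the lot-adjusted fit 13 of the 34 membrane and factor genes were lower, with a median of -1.42. Of the 20 globin, heme and iron genes 6 were lower there, with a median of -1.11. The count of globin, heme and iron genes was 9 without stem-enriched replicate 2, 9 without stem-enriched replicate 3, 9 without total marrow replicate 2 and 8 without total marrow replicate 3. The medians in the same order were -1.36, -1.47, -1.26 and -1.39, against -1.38 with all samples, so they moved little while calls were lost.

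Promoters of lower red cell genes were searched for the letters of a pair of erythroid motifs. Gata1 and Klf1 are the zinc finger factors that drive red cell genes, and both of their own transcripts were lower in stem-enriched cells, with log2 differences of -1.85 and -2.50 (adjusted p = 0.00372 and 0.0035). RefSeq promoters (GRCm38.p6, 250 bases before to 50 after the first listed start) were available for 31 of the lower members of both red cell lists, and 11 of them held AGATAA on either strand. Among lower membrane and factor genes the share was 8 of 20 (40.0%), against 7.25% of all tested genes with a promoter and 11.4% of the 27025 promoters in the table. Among lower globin, heme and iron genes it was 3 of 11 (27.3%), and among lower late neutrophil genes, a list outside the red cell lineage, 7 of 25 (28%). CACACCC was found in 5 of the 20 membrane and factor promoters (25%) and in 1 of the 11 globin, heme and iron promoters (9.09%), against 8.67% of tested genes. The 2 motifs share no end letters and cannot overlap, and a match is a description of letters, not a site. The 3 promoters below belong to the lower red cell genes with the largest falls that held AGATAA, and show where the letters lie: Alas2 at chrX:150547167-150547466 (plus strand), Rhd at chr4:134864286-134864585 (plus strand) and Trim10, an erythroid RING finger protein, at chr17:36869324-36869623 (plus strand). Capitals mark AGATAA or its reverse complement and, in Trim10, CACACCC.
Alas2: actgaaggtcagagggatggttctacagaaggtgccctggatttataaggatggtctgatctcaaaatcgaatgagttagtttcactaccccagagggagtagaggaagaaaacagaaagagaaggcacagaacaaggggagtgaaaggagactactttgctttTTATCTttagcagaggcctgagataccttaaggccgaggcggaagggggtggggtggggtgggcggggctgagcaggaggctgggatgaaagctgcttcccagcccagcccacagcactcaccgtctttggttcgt
Rhd: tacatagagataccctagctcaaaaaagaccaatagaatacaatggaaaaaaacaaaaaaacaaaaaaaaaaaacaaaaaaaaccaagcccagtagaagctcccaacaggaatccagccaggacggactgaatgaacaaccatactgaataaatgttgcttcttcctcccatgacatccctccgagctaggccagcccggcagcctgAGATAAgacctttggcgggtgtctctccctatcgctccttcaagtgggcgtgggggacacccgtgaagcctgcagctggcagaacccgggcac
Trim10: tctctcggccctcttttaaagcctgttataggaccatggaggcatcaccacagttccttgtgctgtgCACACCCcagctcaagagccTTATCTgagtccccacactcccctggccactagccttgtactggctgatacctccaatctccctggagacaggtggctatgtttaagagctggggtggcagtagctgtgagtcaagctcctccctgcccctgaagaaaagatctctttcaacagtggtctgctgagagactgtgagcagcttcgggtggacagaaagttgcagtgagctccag
Counted from the start, with negative numbers before it, the match began at -86 in Alas2, at -43 in Rhd and at -163 in Trim10, where CACACCC began at -183. Trim10 had a log2 difference of -4.51 (adjusted p = 3.12e-05).

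**Figure D3:**
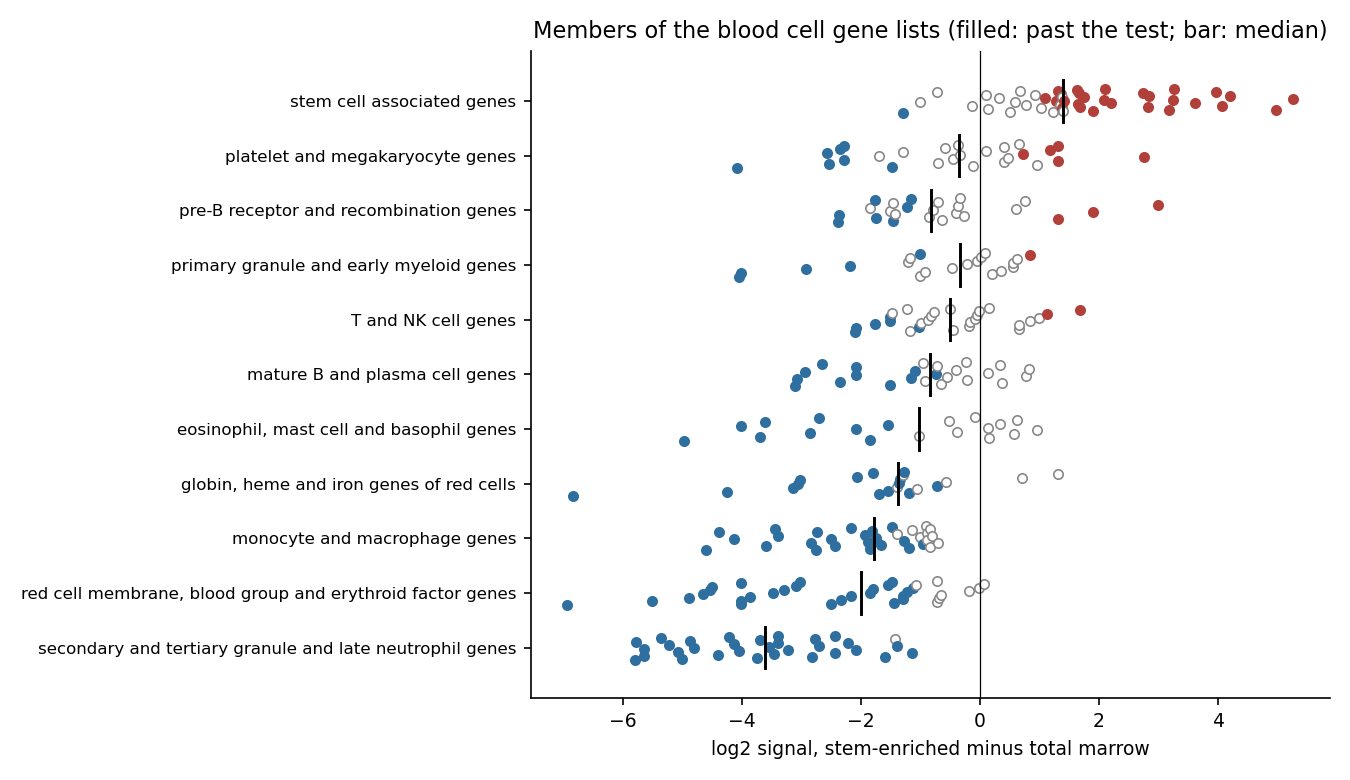
Each point is a tested member of a blood cell gene list, placed by its log2 difference, stem-enriched minus total marrow; filled points passed the test and black bars are list medians. Stem cell associated genes lie mostly right of 0 (median 1.4), and the medians move left to -2 for red cell membrane genes and -3.62 for late neutrophil genes.

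Platelet and megakaryocyte genes moved in both directions. Of 26 tested, 5 were higher (19.2%, against 8.78% of all genes) and 7 were lower (26.9%, against 8.24%). The median was -0.35. F2r, the thrombin receptor Par1, had 10110, 25025 and 28697 in stem-enriched cells and 3412, 2711 and 2512 in total marrow, and was 6.79-fold higher (adjusted p = 0.00182). The platelet chemokine gene Ppbp was 16.9-fold lower (adjusted p = 0.0112), the matrix protein gene Thbs1 5.93-fold lower (a second probe set, at -0.82 on the log2 scale, did not pass) and the tetraspanin gene Cd9 5.79-fold lower. Ppbp was at a log2 difference of -3.26 in the lot-adjusted fit, against -4.08, and did not pass there (adjusted p = 0.207). That fit had 3 platelet genes higher and 4 lower. The 5 higher calls became 2 without stem-enriched replicate 2, 1 without stem-enriched replicate 3, 3 without total marrow replicate 2 and 1 without total marrow replicate 3.

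B cell genes that passed were mostly lower, with Dntt as the main exception. Of 24 pre-B receptor and recombination genes, 7 were lower (29.2%), 3 were higher (12.5%) and the median was -0.82. Erg, described above as a factor that stem cells require, is counted among the 3 higher genes. Dntt, the terminal transferase that adds bases at antigen receptor joints, was among the 3 higher genes, with 7142, 9188 and 13373 in stem-enriched cells and 1346, 936 and 1395 in total marrow (7.94-fold, adjusted p = 7.73e-05). Cd79a, the signalling chain of the B cell receptor, had 700, 642 and 1103 in stem-enriched cells, against 4986, 3578 and 4005 in total marrow, and was 5.24-fold lower (adjusted p = 0.000312). The kinase gene Blk was 5.19-fold lower. Of 24 mature B and plasma cell genes, 11 were lower (45.8%), none was higher and the median was -0.83; 10 were lower in the lot-adjusted fit. Pou2af1, a B cell coactivator, was 8.62-fold lower, Irf4, a plasma cell factor, 8.41-fold lower, Ms4a1, the CD20 antigen, 7.69-fold lower, and Jchain, the joining chain of secreted antibodies, 6.33-fold lower. A second probe set of Irf4 gave a log2 difference of 0.42.

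Among 27 T and NK cell genes, 6 were lower (22.2%), 2 were higher and 19 did not pass, with a median of -0.50. The chemokine gene Ccl5 was 4.29-fold lower and the granzyme gene Gzmb 4.22-fold lower, while the chemokine gene Ccl4 was 3.23-fold higher, at 6631, 6601 and 5166 in stem-enriched cells against 1733, 1425 and 2726 in total marrow. None of these 3 passed in the lot-adjusted fit, although Ccl5 was at -2.72 there against -2.10 (adjusted p = 0.0795), Ccl4 at 1.49 against 1.69 (adjusted p = 0.0628) and Gzmb at -1.05 against -2.08 (adjusted p = 0.296). In that fit 1 of the 27 was lower and the median was -0.84, and without stem-enriched replicate 2 the count was 3. Antigen presentation genes were mixed. Of 21 MHC class II and dendritic cell genes, 4 were higher (19.0%, against 8.78% of all genes), with Flt3 the largest. Another 6 were lower (28.6%, against 8.24%). The lower ones included Cd74, the invariant chain (4.25-fold), the ETS factor Spib (5.12-fold) and Ctss, a protease that processes it (3.34-fold). Their median of -0.12 changed sign when total marrow replicate 3 (0.09), stem-enriched replicate 1 (0.19) or stem-enriched replicate 2 (0.03) was left out. The lot-adjusted fit had 1 higher and 3 lower. The 6 lower calls became 3 without stem-enriched replicate 2 or without total marrow replicate 2.

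Stromal and vascular genes gave little sign of a single direction, with 6 of 20 higher, 3 lower and a median of 0.16. Cxcl12, the niche chemokine that retains stem cells, was 3.78-fold lower (adjusted p = 0.0377), Lpl, lipoprotein lipase, 6.92-fold lower and Acp5, an osteoclast phosphatase, 7.34-fold lower. Dcn, the matrix proteoglycan decorin, was 3.75-fold higher (adjusted p = 0.0296). Another probe set of Cxcl12 passed with a larger fall (log2 difference -3.07, limma adjusted p = 0.0044), and a further one, at -1.34, did not pass. The reported probe set of Cxcl12 lost its call without stem-enriched replicate 2 or 3 (-1.57 and -2.03). It also lost it without total marrow replicate 2 or 3 (-1.62 and -1.87). Dcn lost its call when any 1 stem-enriched sample was left out (1.70 to 2.01). The same held without total marrow replicate 1 or 2 (1.97 and 1.62). In the lot-adjusted fit Cxcl12 was at -2.21 against -1.92 (adjusted p = 0.152), and Dcn, on chip type B, stayed at 1.91 (adjusted p = 0.0519). None of the 20 was higher in that fit; the 6 higher calls became 3 without stem-enriched replicate 2 or without stem-enriched replicate 3.

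**Figure D4:**
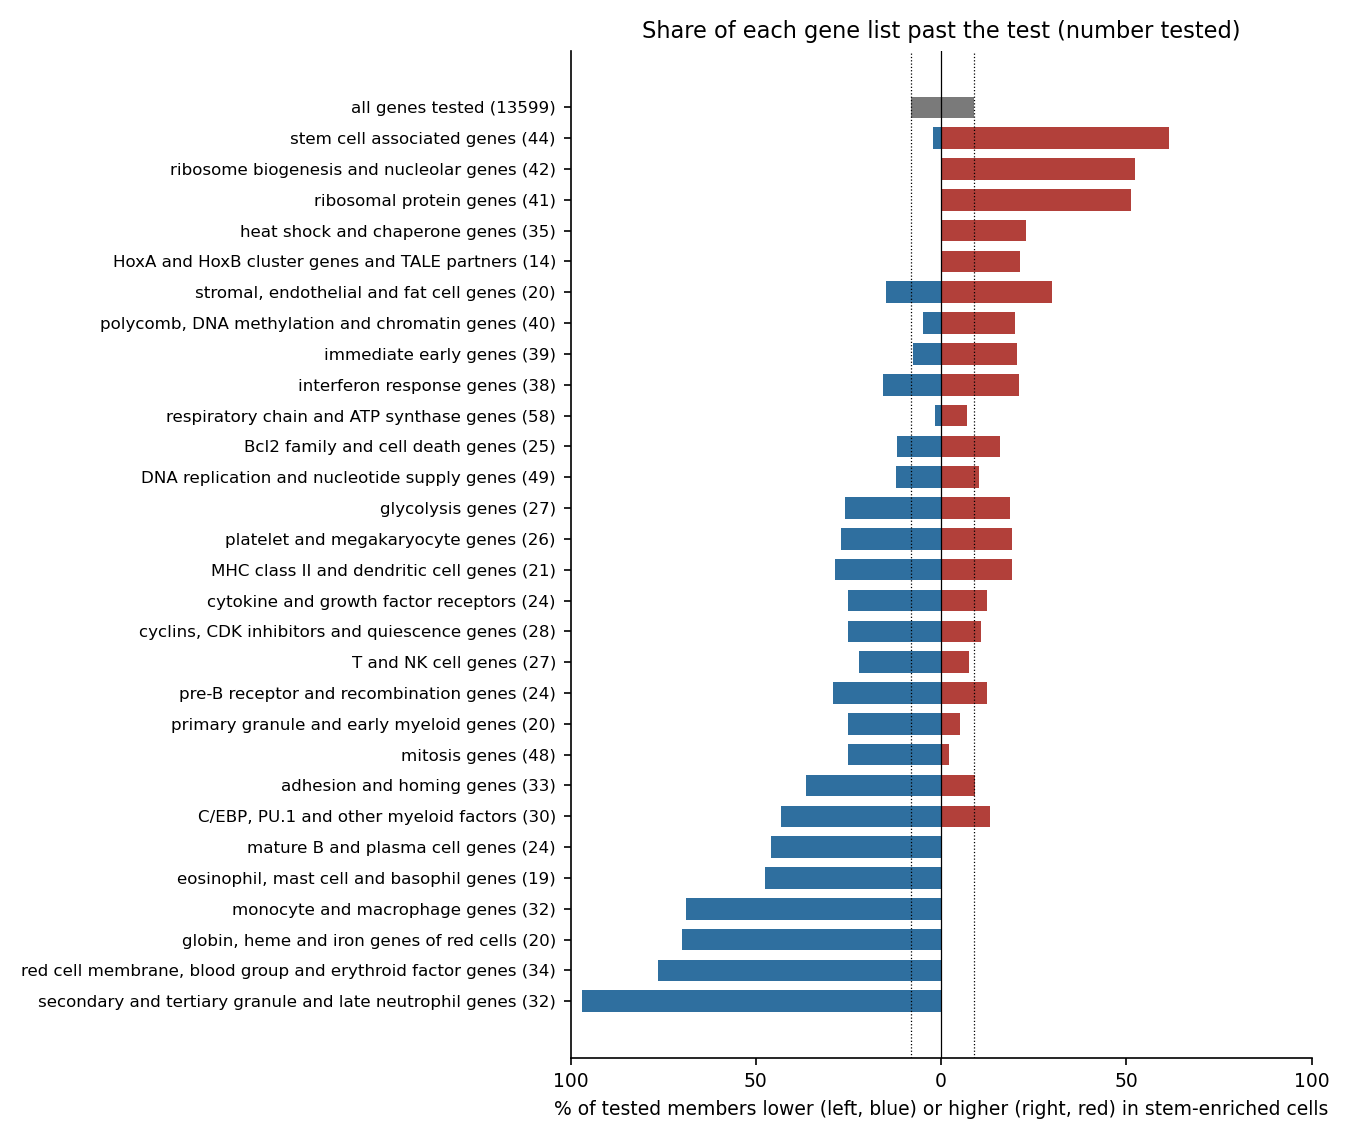
For each gene list, bars to the left give the percentage of tested members lower in stem-enriched cells and bars to the right the percentage higher; the grey bar and dotted lines give all genes (8.24% lower, 8.78% higher). Late neutrophil genes reach 96.9% lower, and stem cell associated genes 61.4%, ribosome biogenesis genes 52.4% and ribosomal protein genes 51.2% higher.

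Many genes for making ribosomes were higher in stem-enriched cells. Of 41 tested ribosomal protein genes, 21 were higher (51.2%) and none was lower, with a median log2 difference of 0.89; of 42 ribosome biogenesis and nucleolar genes, 22 were higher (52.4%) and none was lower, with the same median. Rps15, a protein of the small subunit, had 22546, 23151 and 32102 in stem-enriched cells and 11618, 4566 and 7708 in total marrow (3.45-fold, adjusted p = 0.00182). Rpl37, of the large subunit, was 3.78-fold higher, and Rps6, the small subunit protein phosphorylated by S6 kinase, 2.56-fold higher, at 7514, 6347 and 7996 against 2402, 2880 and 3276. Ncl, the nucleolar protein nucleolin, had 16205, 24009 and 17661 in stem-enriched cells and 7701, 4719 and 7558 in total marrow, with no overlap (2.92-fold, adjusted p = 0.0006). Its 4 other probe sets gave log2 differences of 1.29 to 1.49, of which 1 (1.44, adjusted p = 0.131) did not pass. The ribosome assembly factors Tsr1 and Nob1 were 3.78-fold and 3.23-fold higher, and the nucleolar protein gene Wdr43 2.72-fold higher. Of these, Rps15 (log2 difference 1.75), Rpl37 (1.32), Rps6 (1.51) and Tsr1 (1.38) did not pass in the lot-adjusted fit (adjusted p = 0.0843, 0.235, 0.11 and 0.141). Ribosomal protein probe sets can also read pseudogene copies, so single members are uncertain.

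The ribosome counts were smaller in the lot-adjusted fit, with quantile normalization and without some single samples. Quantile normalization gave 13 higher ribosomal protein genes, with a median of 0.52, and 21 higher biogenesis genes. In the lot-adjusted fit 1 of the 41 ribosomal protein genes was higher, and 14 with Lin-Sca-1-cKit+ replicate 2 also left out; the medians in these fits were 0.74 and 0.90. For ribosome biogenesis the counts were 12 and 16, with medians of 1.16 and 0.86. Without total marrow replicate 2, 10 ribosomal protein genes and 13 biogenesis genes were higher. Without total marrow replicate 3 the counts were 13 and 14, and without stem-enriched replicate 3 the ribosomal protein count was 11. Chaperone genes went the same way in 8 of 35 cases (22.9%, against 8.78% of all genes), with none lower and a median of 0.56. The largest rise was that of the Hsp90 partner Fkbp4 (2.71-fold, limma adjusted p = 0.000638). Its 2 other probe sets, at 0.52 and 0.12 on the log2 scale, did not pass. The constitutive chaperone Hspa8 (2.29-fold), its cochaperone Stip1 (2.27-fold) and the chaperonin subunit Cct2 (2.23-fold) followed. Hspa8, Stip1 and Cct2 did not pass in the lot-adjusted fit, at log2 differences of 0.87, 0.84 and 1.13. The 3 other probe sets of Hspa8 gave log2 differences of 0.55, -1.03 and 2.80. In the lot-adjusted fit 1 of the 35 was higher, 13 were with quantile normalization, and 5 were without stem-enriched replicate 2, total marrow replicate 2 or total marrow replicate 3.

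Some division genes were lower. Of 48 mitosis genes, 12 were lower (25%), 1 was higher and 35 did not pass, with a median of -0.48. Mki67, the proliferation antigen Ki-67, had 9383, 8067 and 8835 in stem-enriched cells and 24102, 25311 and 26856 in total marrow, 2.90-fold lower (adjusted p = 0.000828). Plk1, a mitotic kinase, was 2.84-fold lower, and Cenpf, a kinetochore protein, 2.51-fold lower, although its 2 other probe sets gave 0.26 and -1.71 and did not pass. Stmn1, the microtubule regulator stathmin, was the 1 higher member (3.05-fold), and did not pass in the lot-adjusted fit (0.99 on the log2 scale, adjusted p = 0.164). With quantile normalization 7 of the 48 were lower. None of the 48 was lower in the lot-adjusted fit, and 3 were with Lin-Sca-1-cKit+ replicate 2 also left out. The 12 lower calls became 7 without stem-enriched replicate 2, 5 without stem-enriched replicate 3, 6 without total marrow replicate 2 and 6 without total marrow replicate 3.

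DNA replication genes had no common direction. Of 49 tested, 5 were higher (10.2%, against 8.78% of all genes) and 6 lower (12.2%, against 8.24%), with a median of -0.01. None was higher and 2 were lower in the lot-adjusted fit, with a median of 0.44. The 5 higher calls became 2 without stem-enriched replicate 3, 3 without total marrow replicate 2 and 2 without total marrow replicate 3, where the lower calls numbered 3. Rrm2, the ribonucleotide reductase subunit, was 4.40-fold lower (adjusted p = 0.000611), at 3262, 2245 and 1518 in stem-enriched cells against 7180, 12662 and 10443 in total marrow. Slbp, the histone mRNA binding protein, was 3.03-fold lower (a second probe set, at -0.30 on the log2 scale, did not pass) and Dck, deoxycytidine kinase, 2.98-fold lower. Of 28 cyclins, CDK inhibitors and quiescence genes, 3 were higher and 7 lower (25%), with a median of -0.29. Cdkn1a, the CDK inhibitor p21, was 5.19-fold higher (adjusted p = 0.00263), with 9698, 19716 and 18023 in stem-enriched cells and 3177, 1572 and 4932 in total marrow. Gadd45a, a stress-induced growth arrest gene, had 675, 359 and 397 in stem-enriched cells and 3786, 6594 and 5423 in total marrow (11.2-fold lower, adjusted p = 3.65e-06). Ccnd3, cyclin D3, was 4.28-fold lower. A second probe set of it, at -0.14, did not pass, and a further one passed with a larger fall (log2 difference -2.95, limma adjusted p = 0.000774). Cdkn2d, the CDK inhibitor p19, was 4.63-fold lower. Several of these calls were lost in the lot-adjusted fit, with smaller differences: Cdkn1a was at 1.10 against 2.38 (adjusted p = 0.292), Mki67 at -0.85 against -1.54 (adjusted p = 0.136), Plk1 at -0.95 against -1.51, Cenpf at -0.90 against -1.33, Slbp at -0.81 against -1.60 and Dck at -0.68 against -1.58.

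Immediate early genes, which respond within minutes to growth factors and to handling, were 8 of 39 higher (20.5%), 3 lower and 28 not passed, with a median of 0.26. Nr4a1, an orphan nuclear receptor, had 24814, 45845 and 34670 in stem-enriched cells and 2738, 2824 and 7289 in total marrow, and was 8.88-fold higher (adjusted p = 1.52e-05). Dusp5, a phosphatase of ERK, was 9.84-fold higher, at 7611, 15479 and 11647 against 930, 525 and 2953. Maff, a small Maf factor, was 11.5-fold higher (adjusted p = 0.00809) but did not pass in the lot-adjusted fit, at a log2 difference of 2.00 against 3.52 (adjusted p = 0.328); 5 of the 39 genes were higher there. Cxcl2, a neutrophil-attracting chemokine, was 8.96-fold lower. The part of the sort's duration and handling in these values was not tested, and only the stem-enriched cells of this pair were sorted.

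Interferon response genes were split. Of 38 tested, 8 were higher (21.1%, against 8.78% of all genes) and 6 lower (15.8%, against 8.24%), with a median of 0.12. The higher calls became 4 without stem-enriched replicate 3 or total marrow replicate 2. They became 5 without total marrow replicate 1 or either other stem-enriched sample, and 5 in the lot-adjusted fit. The largest rise, looked up after the fact, was that of the transcription factor Irf1 (1.35 on the log2 scale, adjusted p = 0.00031). Larger falls were seen beside that of Ifitm6: Rsad2, the antiviral protein viperin, was 6.21-fold lower, Isg20, an exonuclease, 6.00-fold lower and Oas3, an oligoadenylate synthetase, 5.46-fold lower. Rsad2 had 14178, 8418 and 10405 in stem-enriched cells and 56024, 70020 and 75659 in total marrow. Adhesion and homing genes were lower in 12 of 33 cases (36.4%) and higher in 3, with a median of -0.61. Ccr1, a chemokine receptor of myeloid cells, was 18.4-fold lower, at 391, 226 and 249 against 3082, 6408 and 6895 in total marrow, with a second probe set at a log2 difference of -1.96. Ncam1, the neural cell adhesion molecule, was below the floor in every stem-enriched sample and at least 14.4-fold lower.

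Among 24 cytokine receptors, 3 were higher (Flt3, Tek and Kit) and 6 lower (25%), with a median of -0.40; 1 was higher and 3 were lower in the lot-adjusted fit. Il7r, the receptor chain of lymphoid progenitors, was 3.40-fold lower (adjusted p = 0.00472), with 1613, 1334 and 932 in stem-enriched cells and 5330, 3906 and 3794 in total marrow. Il10ra was 4.71-fold lower. Csf2rb is the shared chain of the GM-CSF, IL-3 and IL-5 receptors. On the probe set taken for it, Csf2rb was below the floor in stem-enriched cells and at least 4.32-fold lower. That probe set lost its call in the lot-adjusted fit (-1.93 against -2.11, adjusted p = 0.146) and with the floor at the median (-0.39, adjusted p = 0.0868). Its other probe set, on chip type B, was well above the floor. It read 8423, 4997 and 5161 in stem-enriched cells and 20954, 29442 and 24178 in total marrow (log2 difference -2.03, limma adjusted p = 3.46e-05). Of 30 myeloid transcription factors, 13 were lower (43.3%) and 4 higher, with a median of -0.70; the 4 higher calls became 2 without stem-enriched replicate 2 or any 1 of the total marrow samples, and the lot-adjusted fit had 8 lower and 2 higher. Mxd1, a Max partner that opposes Myc, had 4612, 5136 and 6522 in stem-enriched cells and 50382, 97718 and 103982 in total marrow, 14.9-fold lower (adjusted p = 5.98e-07). Cebpb and Cebpd, C/EBP factors of late myeloid cells, were 5.77-fold and 6.28-fold lower. Second probe sets of Cebpb and Cebpd, at -1.61 and -0.31, did not pass. Ets1, a lymphoid ETS factor that is also counted in this list, was 5.78-fold lower. The factors Spi1 (PU.1) and Cebpa, which start the myeloid program and were looked up after the fact, did not pass (-0.21 and -0.47 on the log2 scale, adjusted p = 0.705 and 0.541).

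Chromatin regulators were higher in 8 of 40 cases (20.0%) and lower in 2, with a median of 0.32. Dnmt3b, a de novo DNA methyltransferase, had 4642, 5628 and 5453 in stem-enriched cells and 1533, 825 and 836 in total marrow, 5.13-fold higher (adjusted p = 4.27e-05). Hmga2, a chromatin protein of fetal stem cells, was 3.56-fold higher, with 3 other probe sets at log2 differences of 0.75 to 4.09, and Ring1, a polycomb ubiquitin ligase, 3.40-fold higher, while Hmgb2, a chromatin protein of dividing cells, was 3.93-fold lower with 2 other probe sets at -0.04 and -0.44. Ring1 lost its call without any 1 stem-enriched sample and without total marrow replicate 2 or 3 (1.45 to 1.86). Quantile normalization (1.49) and no floor (1.76) also removed it. Hmga2 was at 1.69 in the lot-adjusted fit against 1.83 (limma adjusted p = 0.0723), and Ring1 at 2.17 against 1.77 (limma adjusted p = 0.142). Neither passed there, where 2 of the 40 were higher, and 5 were with quantile normalization; the count was 4 when total marrow replicate 3, stem-enriched replicate 2 or stem-enriched replicate 3 was left out. Of 25 Bcl2 family and cell death genes, 4 were higher and 3 lower. Casp12, an inflammatory caspase, was 4.10-fold higher. The survival gene Bcl2l1 (2.92-fold) and Apaf1 (2.21-fold), the apoptosome scaffold, were lower. Another probe set of Apaf1, at -0.42, did not pass. The caspase gene Casp9 was lower on the probe set taken for it (log2 difference -1.09, limma adjusted p = 0.0348). Another probe set of Casp9 passed in the opposite direction (1.63, limma adjusted p = 0.0024), and a further one, at 0.32, did not pass. The direction of Casp9 is therefore not settled. Its lower call was lost in the lot-adjusted fit (-0.45, adjusted p = 0.676). The 4 higher calls became 1 in the lot-adjusted fit, and 2 without stem-enriched replicate 2 or total marrow replicate 3.

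Energy genes were described by 2 lists. In glycolysis and the pentose phosphate branch, 7 of 27 genes were lower (25.9%), 5 were higher (18.5%) and the median was -0.18; the higher calls became 2 without stem-enriched replicate 3 and 3 without total marrow replicate 3, and the lot-adjusted fit had 2 higher and 4 lower. Pgd, a dehydrogenase of the pentose phosphate pathway, had 7504, 4200 and 4059 in stem-enriched cells and 18712, 26476 and 21076 in total marrow (4.34-fold lower, adjusted p = 2.97e-05). Taldo1, transaldolase of the same pathway, was 3.46-fold lower (adjusted p = 1.53e-05), and Pfkfb4, a regulator of glycolytic flux, 4.44-fold lower. Few respiratory chain and ATP synthase genes passed, and 53 of 58 did not. Of the 58, 4 were higher (6.9%, against 8.78% of all genes) and 1 was lower (1.72%, against 8.24%). Their median was 0.12, against 0.15 over all genes. The 4 higher calls became 2 without stem-enriched replicate 1 or 2, and 1 without stem-enriched replicate 3, total marrow replicate 2 or total marrow replicate 3, and 1 in the lot-adjusted fit. The lower member, Ndufb7 of complex I, was 1.68-fold lower (log2 difference -0.75, adjusted p = 0.0403). It lost the call in the lot-adjusted fit (-0.39, adjusted p = 0.617) and when any 1 stem-enriched or total marrow sample other than total marrow replicate 2 was left out (-0.59 to -0.82), and its other probe set did not pass (-0.53, adjusted p = 0.0967).

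The other marrow populations show where these levels lie between the extremes, as a description that shares samples with the comparison. Ctla2a had a mean log2 signal of 14.75 in stem-enriched cells, 11.70 in Lin-Sca-1-cKit+ cells, 11.19 in Lin-Sca-1-cKit- cells, 11.57 in Lin- marrow and 9.48 in total marrow. The 3 intermediate populations, with SDs of 0.37 to 0.51, lay close together for this gene. Cd34 was at 13.76 in stem-enriched cells, 12.66 in Lin-Sca-1-cKit+ cells, 10.14 in Lin-Sca-1-cKit- cells, 12.39 in Lin- marrow and 9.80 in total marrow, so Lin-Sca-1-cKit+ cells and Lin- marrow lay nearer to the stem-enriched cells. Lcn2 was at 10.67 in stem-enriched cells and 9.68 in Lin-Sca-1-cKit+ cells, but at 15.76 in Lin-Sca-1-cKit- cells, 14.57 in Lin- marrow and 16.45 in total marrow. Slc4a1 was at 8.06, 7.55, 13.45, 13.56 and 15 in the same order of populations. These mature cell transcripts were low in both cKit+ sorts and high in the cKit- sort. Rps15 and Ncl were at 14.64 and 14.21 in stem-enriched cells, at 14.74 and 14.71 in Lin-Sca-1-cKit+ cells, and at 12.86 and 12.67 in total marrow.

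**Figure D5:**
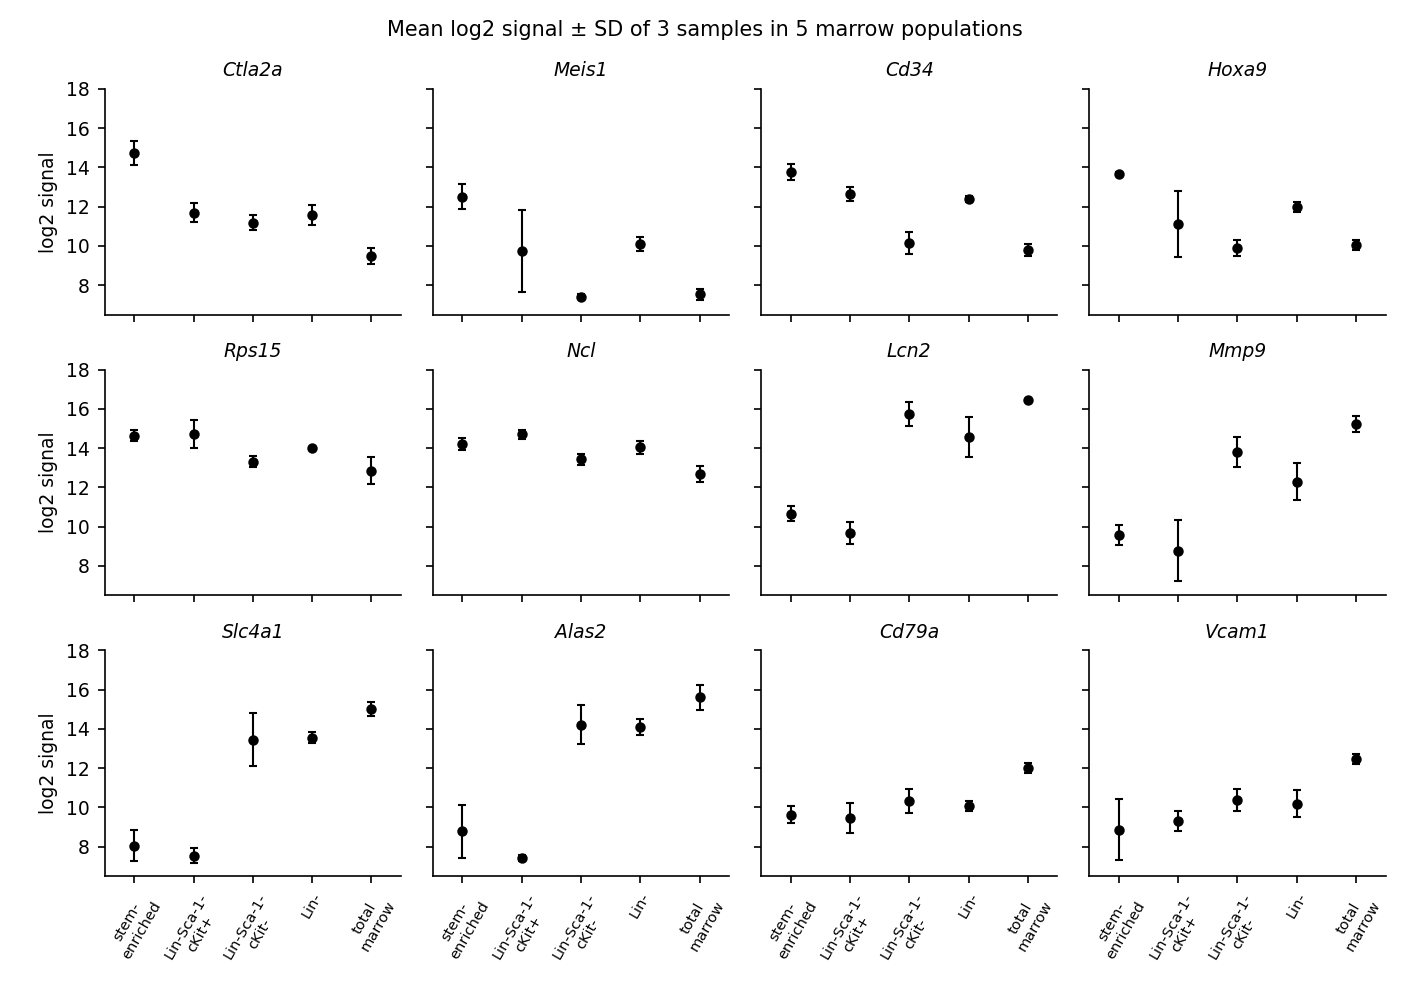
Mean log2 signal ± SD of 3 samples for 12 genes in stem-enriched cells, Lin-Sca-1-cKit+, Lin-Sca-1-cKit-, Lin- and total marrow. Ctla2a, Meis1, Cd34 and Hoxa9 (top row) have their highest means in stem-enriched cells, whereas Lcn2, Mmp9, Slc4a1 and Alas2 are low in both cKit+ populations (7.43 to 10.67) and high in the other 3 (12.30 to 16.45).

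Genes measured on both chip types could be compared between them. Both chip types carried the same RNA samples, and on both the lot and scan day differed between the populations. The agreement therefore cannot tell RNA quality, lot or day apart from the population. For 448 genes that passed on chip type A and had a probe set tested on chip type B, 341 differed in the same direction on B, 85 of these also passed there, and 2 passed in the opposite direction. The same shares over all genes with probe sets on both chip types were not counted. Of the 100 normalization control probe sets present on both chip types, 86 had the same sign of difference.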

How the data were processed

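RNA from 16 mouse marrow samples was hybridised to 2 Affymetrix chip types (A and B), giving 32 arrays. The deposited intensity values are MAS5 signals on a linear scale, 1 per probe set, per the submitters' processing notes; the authors' values have a trimmed mean of 1500.1 to 1500.7 on every array, so each array was scaled to a common target. The other deposited files are the instrument's text records, from which chip lot and scan day were read. For arrays, the number of arrays limits the precision.

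Before log2 was taken, lower signals were set to each chip type's 25th percentile, 162.3 on A and 268.1 on B. Probe sets above the median signal of their chip type (535.3 and 843.8) on 3 or more arrays were tested, 28949 of 45037. The model used R 4.3.3 and limma 3.58.1 (lmFit and eBayes with a variance trend) on the 15 samples of 5 populations with 3 samples each, per chip type, with Benjamini-Hochberg adjustment over both and a threshold of 0.05; SE is the moderated standard error. It was tested on simulated data. Signals printed are before the floor, folds after it; a group wholly at the floor gives an "at least" fold.

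Each gene had 1 probe set: a single gene symbol, suffix _at or _a_at before _s_at before _x_at, chip type A before B, then the highest mean. For named genes, other tested probe sets are given where 1 did not pass or differed by over 1.5 on the log2 scale. Named genes were, among genes that passed without overlap of the samples, the 15 with the largest rise and the 15 with the largest fall, up to 4 called members of each of 29 gene lists, and sort markers; genes named after their values were seen are said to be so. The lists and the comparison were chosen with earlier results of these data known. Promoters came from RefSeq (GRCm38.p6). Replicate numbers did not pair the samples: same-numbered deviations correlated at -0.011, 0.014 and 0.016.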

Additional observations from a re-analysis of the deposited data

How the results depend on the processing

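The count of 4108 probe sets (2069 higher, 2039 lower) changed with the spread estimate and with the lot block. Among higher calls, 3193 passed when only the 2 populations were fitted. Without Lin-Sca-1-cKit+ replicate 2, 6273 passed (3425 higher, 2848 lower), and with array weights 7923 (4481 higher, 3442 lower). With the chip lot as a block on chip type A, 1780 passed (704 higher, 1076 lower), 1694 of them among the 4108. With that library also left out, which was added after seeing the data, 1335 were higher. Leaving out each stem-enriched or total marrow replicate gave 2391 to 3524 calls, 1118 to 1686 higher and 1273 to 1848 lower. The replicate numbers as a block (no pairing was found) gave 4070 calls. Quantile normalization, the floor, the filter, no variance trend and the Gapdh ratio as a covariate kept the count within 1.5 times.

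Some list medians changed sign. The platelet median became 0.09 with the added lot block. The MHC class II median became 0.43 with the Gapdh covariate, -0.52 to 0.19 without single replicates, and 0.19 without stem-enriched replicate 1 and Lin-Sca-1-cKit+ replicate 2. The stromal median became 0 with quantile normalization and -0.27 with the filter at the 75th percentile. The immediate early median became -0.1 with the lot block. The interferon median became -0.02 with the stricter filter, -0.07 to 0.24 without single replicates, and -0.07 without both libraries named above. The respiratory chain median became -0.01 with the Gapdh covariate. The log2 difference of Casp9, -1.09 on the probe set taken for it, became 0.28 as the mean over its probe sets. Among these, 1 passed as higher (1.63). The cause was not tested. Of the other list medians, 533 stayed close to the reported value and 62 moved further from it. Medians near 0, such as that of the Hox list (0.08, and -0.03 with quantile normalization), could change sign among these. For named genes, 2530 values kept direction and call or, as means over probe sets, stayed within the spread. A further 25 such means moved more, and 139 named-gene values lost the call.

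The blocked fit takes the lot difference from other populations, and a fit within 1 lot could not be run, since no lot holds both populations on either chip type. Low signals near the floor understate folds.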
